A study of Macaca mulatta with 144 samples.

Results

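Serum miRNAs on day 6 after total-body irradiation (TBI) were compared between 13 rhesus macaques (NHPs) that survived and 11 that were labelled deceased. All day 6 libraries of NHPs given 6, 6.5, 7 or 7.5 Gy were taken, which made 24 of the 144 small RNA libraries of the series, and survival was read from the sample labels. The radiation doses (RD) of 8 and 8.5 Gy were left out because 1 NHP survived at each. The change of each NHP from its own pre-irradiation library was compared in the same way, with 24 further libraries. At 6 Gy 4 NHPs survived and 2 were deceased, at 6.5 Gy 3 and 3, at 7 Gy 2 and 4, and at 7.5 Gy 4 and 2.

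The survivors were 8 males and 5 females, and the deceased were 3 males and 8 females. Both deceased NHPs at 6 Gy and both survivors at 7 Gy were female, and all 4 survivors at 7.5 Gy were male, so sex and survival were partly tied together within a dose. Every NHP of both groups had received TBI from a cobalt source, and no unirradiated NHP was part of the comparison. By the study's methods, moribund animals were euthanized and counted as deaths, so the group labelled deceased holds animals that were alive when the day 6 serum was taken. Ages and days of death were not used here.

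MicroRNAs are short RNAs that guide the silencing complex to messenger RNAs through the seed near their 5′ end. In serum they are carried in vesicles and protein complexes, and they come mostly from blood cells, platelets and vessel walls, with small amounts from organs such as liver, muscle and gut. Red blood cells hold very large amounts of miR-486-5p, miR-451, miR-16-5p and miR-92a-3p, and haemolysis is widely scored from the log2 ratio of miR-451, which red cells hold, to miR-23a-3p, which they hold little of. High doses of TBI deplete lymphocytes within days and damage the bone marrow and the gut lining, whose cells carry miR-150, miR-142 and the miR-200 family. In serum, fewer cells of a type and less RNA released per cell cannot be told apart.

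On day 6, libraries held 11174 to 1378871 counts in survivors (median 279828) and 109569 to 4118401 in deceased NHPs (median 491989). The red blood cell miRNA miR-486-5p took 42.1% to 90.0% of the counts in survivors and 53.4% to 88.1% in deceased NHPs. Levels are CPM, counts scaled to one library size after the total is multiplied by a TMM factor, which ran from 0.258 to 2.83 in survivors and from 0.0907 to 1.97 in deceased NHPs, so that the CPM of a library need not add up to the nominal sum. The libraries of 2 survivors, RA2445M at 6 Gy (24458 counts) and RA2021F at 7 Gy (11174 counts), held under 10% of the median total of the series (280254.5 counts). The measures of the libraries and the numbers of miRNAs called are given with and without them. Values of single miRNAs include them unless stated otherwise. The pre-irradiation library of RA2265F, a deceased NHP at 7 Gy, was identical to a day 1 library of another animal (82153 counts in each).

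No serum miRNA separated survivors from deceased NHPs on day 6 at adjusted p under 0.05. Of 290 miRNAs tested, 0 (0%) were called by edgeR with RD as a factor, and the smallest adjusted p was 0.236. At unadjusted p under 0.05 edgeR had 35 miRNAs, 11 (3.79%) with a higher and 24 (8.28%) with a lower level in survivors. limma and DESeq2 also called 0, with 20 miRNAs (0 higher, 20 lower) and 25 miRNAs (17 higher, 8 lower) at unadjusted p under 0.05.

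The direction depended on the scaling of the libraries. In edgeR the unadjusted split was 38 higher and 7 lower with RLE size factors, and 52 higher and 1 lower with total counts alone. The median log2 fold change of all 290 miRNAs, survived over deceased, was -0.04 with TMM. It shifted by 0.39 with RLE, by 0.98 with total counts alone, by 0.30 in DESeq2 and by -0.36 in limma, so the values below are best read against this median. The miRNAs named next are the 6 of smallest unadjusted p in each direction, and none of them passed.

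miR-337-5p, a miRNA of the imprinted DLK1-DIO3 region, had a count in 5 of 13 survivors and in 2 of 11 deceased NHPs. Its highest level was 24.2 CPM in survivors and 2.15 CPM in deceased NHPs, and the median was 0 in both groups. The log2 fold change was 2.78 (SE 0.83, edgeR unadjusted p = 0.0016, adjusted p = 0.236). The groups overlapped at 0, and no library held more than 33 counts of it.

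miR-181c-3p, the minor arm of a miRNA of T cell development, ranged from 0 to 33.8 CPM in survivors (median 18.7) and from 0 to 45.5 CPM in deceased NHPs (median 4.63). It had a count in 10 of 13 survivors and in 6 of 11 deceased NHPs. Survivors lay above deceased NHPs of the same RD in 23 of 33 pairs, and the groups overlapped. The log2 fold change was 2.01 (SE 0.75, edgeR adjusted p = 0.260), and the 3 survivors at 0, RA2445M, RA2021F and RA2709M, had 3 of the 4 lowest totals.

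miR-193a-3p had a count in 7 survivors and 4 deceased NHPs, with medians of 7.17 CPM in survivors and 0 CPM in deceased NHPs (log2 fold change 2.85, SE 0.97, edgeR adjusted p = 0.260). miR-376a-3p, another DLK1-DIO3 miRNA, had a count in 9 survivors and 5 deceased NHPs, with medians of 5.95 CPM in survivors and 0 CPM in deceased NHPs (log2 fold change 1.77, SE 0.70). Both were low-abundance miRNAs, with at most 28 and 19 counts in a library, and the groups overlapped. miR-499-5p, which lies in a myosin gene of heart and slow muscle, had a count in 5 survivors (at most 12 counts) and in 1 deceased NHP (1 count). miR-340-3p had medians of 3.27 CPM in survivors and 1.07 CPM in deceased NHPs (log2 fold change 2.11, SE 0.82).

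Among the miRNAs lower in survivors, miR-484 and miR-92b-3p had counts in all 24 libraries. The level of miR-484 was 280 to 2312 CPM in survivors (median 606) and 554 to 10397 CPM in deceased NHPs (median 1315), with a log2 fold change of -1.37 (SE 0.44, edgeR unadjusted p = 0.00291, adjusted p = 0.260). Survivors lay below deceased NHPs of the same RD in 24 of 33 pairs. The difference in mean log2 level was -3.51 at 6 Gy, -1.62 at 6.5 Gy, -0.01 at 7 Gy and 0.21 at 7.5 Gy, so it lay at the 2 lower doses. miR-484 is often used as a reference miRNA in serum assays.

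miR-92b-3p, which shares its seed with miR-92a-3p, had a median of 608 CPM in survivors (range 293 to 4757) and 1134 CPM in deceased NHPs (range 241 to 13190). Its log2 fold change was -1.46 (SE 0.53, edgeR adjusted p = 0.260), and it too lay below in 24 of 33 pairs. As for miR-484, the difference was largest at 6 Gy (-3.26) and 6.5 Gy (-1.54), against -0.31 at 7 Gy and 0.18 at 7.5 Gy.

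miR-342-5p, from a gene of lymphocytes and other blood cells, had a count in 6 of 13 survivors and in 8 of 11 deceased NHPs. Medians were 0 CPM in survivors and 5.00 CPM in deceased NHPs, and the highest values were 5.95 CPM in survivors and 56.2 CPM in deceased NHPs (log2 fold change -2.10, SE 0.73, edgeR adjusted p = 0.260). It lay lower in survivors in 24 of 33 pairs and higher in 5. miR-550-3p had a count in 3 survivors and 5 deceased NHPs (log2 fold change -2.43, SE 0.86), with its 2 highest levels in the deceased NHPs of 6 Gy. miR-183-5p, of the sensory cluster with miR-96 and miR-182, had a count in 5 survivors and 6 deceased NHPs (log2 fold change -2.45, SE 0.92).

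miR-149-5p had the largest negative value of these 6, and few animals carried it. It had a count in 5 survivors and in 5 deceased NHPs, with a median of 0 CPM in both groups. The highest level was 5.95 CPM in survivors (1 count) and 283 CPM in deceased NHPs (150 counts in RA1782F at 6.5 Gy). The log2 fold change was -3.62 (SE 1.08, edgeR unadjusted p = 0.00163, adjusted p = 0.236), and leaving out 1 NHP at a time moved it between -4.07 and -1.52.

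**Figure D1:**
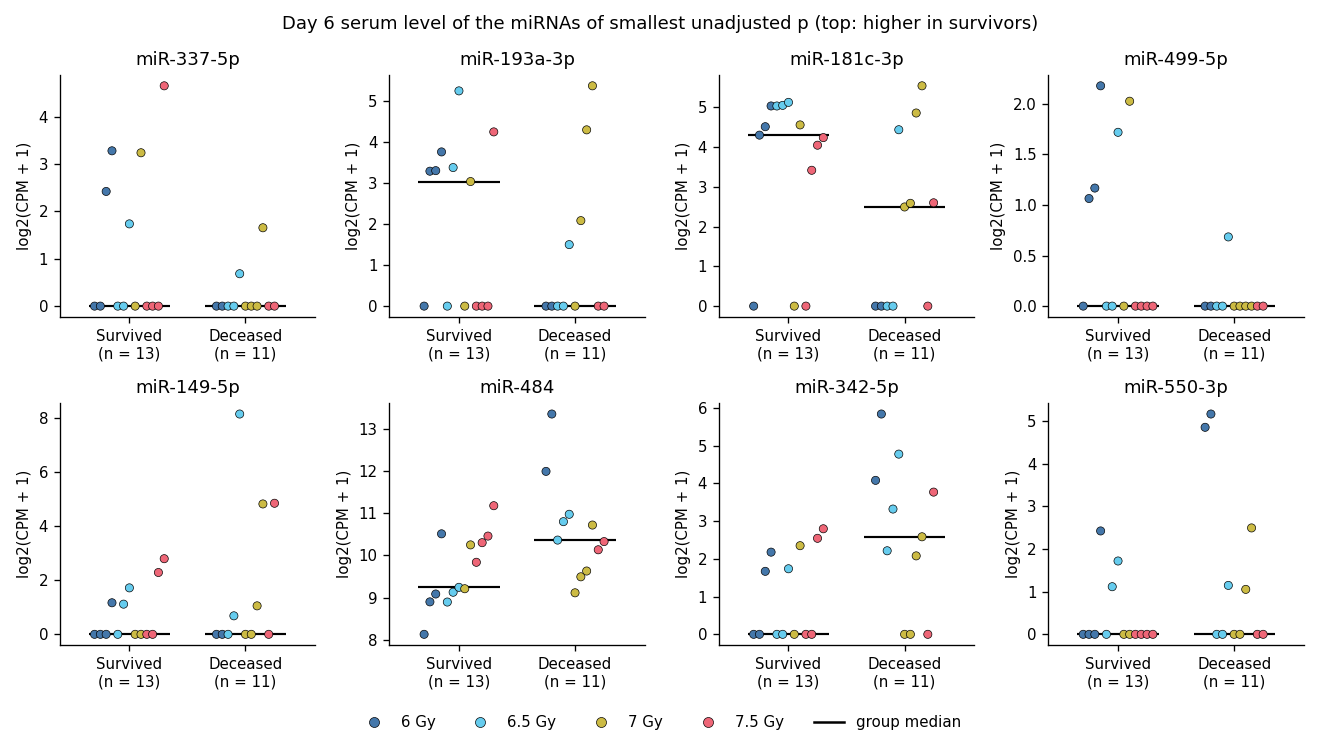
Day 6 serum levels, log2(CPM + 1), of the 4 miRNAs of smallest unadjusted p in each direction, with survivors (n = 13) left of deceased NHPs (n = 11). Each point is 1 NHP coloured by dose and the line is the group median. Most upper panels hold many values at 0, and miR-484 has medians of 606 and 1315 CPM with overlapping groups.

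The plot of day 6 levels shows the overlap for each of these miRNAs. For miR-484, the 2 highest points are the deceased NHPs of 6 Gy, RA0724F and RA0521F, whose TMM factors of 0.0907 and 0.283 were among the lowest of the 24 libraries. With the 5 NHPs of a TMM factor under 0.3 left out (RA2445M and RA2709M, survived; RA0724F, RA0521F and RA1782F, deceased), a choice made after seeing the data, 0 miRNAs were called and 29 had an unadjusted p under 0.05. Without the 2 libraries of low total 0 were called and 40 had an unadjusted p under 0.05.

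Groups of miRNAs that share an origin were then described by the number of members on each side and by their median, beside the median of all 290 (-0.04). None of their members passed adjusted p 0.05. The DLK1-DIO3 region, an imprinted cluster of maternally expressed miRNAs, stood on the side of survivors: 31 of 42 members had a positive log2 fold change, with a median of 0.53. At unadjusted p under 0.05 were 2 members, miR-337-5p and miR-376a-3p, both with higher levels in survivors, where 3.79% of all miRNAs tested were.

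Larger counts stood behind other members of the region. miR-381-3p had medians of 371 CPM in survivors and 200 CPM in deceased NHPs (log2 fold change 0.98, edgeR unadjusted p = 0.0564), and miR-369-3p had 128 CPM in survivors and 41.7 CPM in deceased NHPs (0.82, p = 0.15). miR-654-3p, the member of highest median in survivors, had medians of 783 CPM in survivors and 482 CPM in deceased NHPs (0.33, SE 0.48, and 0.01 without RA2284F and 0.74 without RA2745F). miR-127-3p had 583 CPM in survivors and 332 CPM in deceased NHPs with a log2 fold change of -0.29, so not all members pointed the same way. The summed level of the region was 812 to 8310 CPM in survivors (median 4412) and 1753 to 9990 CPM in deceased NHPs (median 2828), so the sums overlapped over nearly their whole range. Relative to the median of all miRNAs, the list lay 0.39 to 0.76 above it under every scaling, filter, covariate and exclusion tried, and 0.41 to 0.74 above it with each NHP left out in turn.

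Red blood cell miRNAs stood on the other side. Of 10 members, 9 had a negative log2 fold change, with a median of -0.56, and miR-25 alone reached unadjusted p under 0.05 (-0.86, p = 0.0197, edgeR). miR-451, made in very large amounts by red cell precursors, had medians of 3624 CPM in survivors and 7192 CPM in deceased NHPs (log2 fold change -0.70, SE 0.39). miR-16-5p had 5618 CPM in survivors and 7654 CPM in deceased NHPs (-0.31, SE 0.41), and the log2 fold change of miR-486-5p was -0.60 (SE 0.60), moving to -1.33 without RA2021F and -0.19 without RA0724F. The list median minus that of all miRNAs was -0.74 to -0.27 in all alternatives, although the list's own median was 0.19 with total counts alone. Before irradiation the list median was already -0.22, against 0.12 for all miRNAs. For the change from pre-irradiation it was -0.24, against 0.04 for all.

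miRNAs of liver, gut and nerve cells had mostly negative values. Of all 290 miRNAs 150 had negative values, and 8.28% had one with an unadjusted p under 0.05. All 5 liver miRNAs lay below 0 (median -0.97, between -1.35 without RA2284F and -0.42 without RA2267F), 1 with an unadjusted p under 0.05, namely miR-192-5p with 1039 CPM in survivors and 2557 CPM in deceased NHPs (log2 fold change -0.97, SE 0.44, edgeR unadjusted p = 0.034). miR-122a-5p, the main liver miRNA, had low levels, with medians of 4.83 CPM in survivors and 5.66 CPM in deceased NHPs (-2.08, p = 0.0659). The most abundant of the list, miR-148a-3p, had 4325 CPM in survivors and 3889 CPM in deceased NHPs (-0.008, SE 0.46). It lay above the median of all 290 miRNAs. Of 9 epithelial miRNAs 7 lay below 0 (median -0.55, and -0.32 without RA2267F), among them miR-375 of endocrine cells (202 CPM in survivors and 389 CPM in deceased NHPs). The positive members were miR-203 (1.35, edgeR unadjusted p = 0.0667) and miR-205 (0.56). All 4 neural miRNAs lay below 0 (median -1.48, between -1.74 without RA0521F and -0.62 without RA1782F), and 2 of them, miR-138-5p and miR-9-5p, reached unadjusted p under 0.05. The most abundant of the neural list, miR-128a-3p, had 66.4 CPM in survivors and 99.2 CPM in deceased NHPs (-0.79, SE 0.47). The more abundant miR-128b-3p of the same family was not in the list and is described below with the changes. All 7 p53-responsive miRNAs lay below 0 (median -0.37, between -0.81 without RA2284F and -0.24 without RA2021F). Of these only miR-34a-5p (-0.08, edgeR unadjusted p = 0.911) is in no other list. miR-192-5p and miR-194-5p are also in the liver and epithelial lists, miR-215-5p in the epithelial list, miR-143-3p and miR-145-5p in the muscle list and miR-16-5p in the red blood cell list.

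The let-7 family, which limits growth in differentiated cells, had negative values for 9 of 9 members with a median of -0.36 (-0.17 without RA1782F). Of these, miR-98 (-0.008) and let-7g-5p (-0.02) lay above the median of all 290 miRNAs (-0.04). let-7a-5p had 855 CPM in survivors and 1226 CPM in deceased NHPs, and let-7f-5p 1601 CPM in survivors and 1347 CPM in deceased NHPs (medians). The list median minus that of all miRNAs was -0.32 with all NHPs and 0.04 with the 5 NHPs of low TMM factor left out. The miR-17 cluster and its paralogues, which promote growth of blood progenitors, had 11 of 14 negative values (median -0.59).

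White blood cell miRNAs were divided. Of 12 lymphocyte miRNAs 8 had negative values (median -0.52), and both minor arms miR-342-5p (-2.10) and miR-150-3p (-1.44) reached unadjusted p under 0.05. miR-150-5p, the most typical lymphocyte miRNA, had 625.3 CPM in survivors and 569 CPM in deceased NHPs (-0.77, p = 0.185). The most abundant of the list, miR-181a-5p, had 3278 CPM in survivors and 3168 CPM in deceased NHPs (-0.55, SE 0.39). Of 8 myeloid miRNAs 6 had positive values (median 0.27), 1 with an unadjusted p under 0.05, while both negative members, miR-338-5p (-1.69, p = 0.0268) and miR-424-3p (-1.59, p = 0.0416), had one. The positive miR-142-3p, found in all blood cells, had 58.3 CPM in survivors and 17.7 CPM in deceased NHPs (log2 fold change 1.41, SE 0.63, edgeR unadjusted p = 0.0303), and miR-223 of neutrophils and monocytes 424 CPM in survivors and 265 CPM in deceased NHPs (0.59, p = 0.204). The most abundant myeloid miRNA, miR-21-5p, had medians of 2890 CPM in survivors and 3048 CPM in deceased NHPs (0.31, SE 0.43). The myeloid median minus that of all miRNAs turned negative in limma (-0.12) and with the haemolysis score as covariate (-0.05). With 1 NHP left out the myeloid median lay between 0.13 (without RA1782F) and 0.45 (without RA2021F), and the lymphocyte median between -0.59 (without RA2691M) and -0.30 (without RA0724F).

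The remaining groups had no steady side. Platelet and endothelial miRNAs had 4 positive and 4 negative values (median -0.03), and the miR-30 family 5 and 4 (median 0.06). The miR-10, miR-99/100 and miR-125 group had 5 and 6 (median -0.15), with miR-125b-5p at -1.45 and miR-99b-3p at 1.79, both at unadjusted p under 0.05. Muscle miRNAs had 1 positive value, miR-499-5p, and 4 negative ones (median -0.37), and their median minus that of all miRNAs was 0.10 in limma. The most abundant members had log2 fold changes of -0.07 (miR-191-5p, platelet and endothelial), 0.03 (miR-10b-5p), -0.43 (miR-30a-5p) and -0.36 (miR-378a, muscle). With total counts alone the medians of all lists turned or stayed positive except those of liver (-0.03) and neural (-0.29) miRNAs, so the negative sides above hold only relative to all miRNAs.

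**Figure D2:**
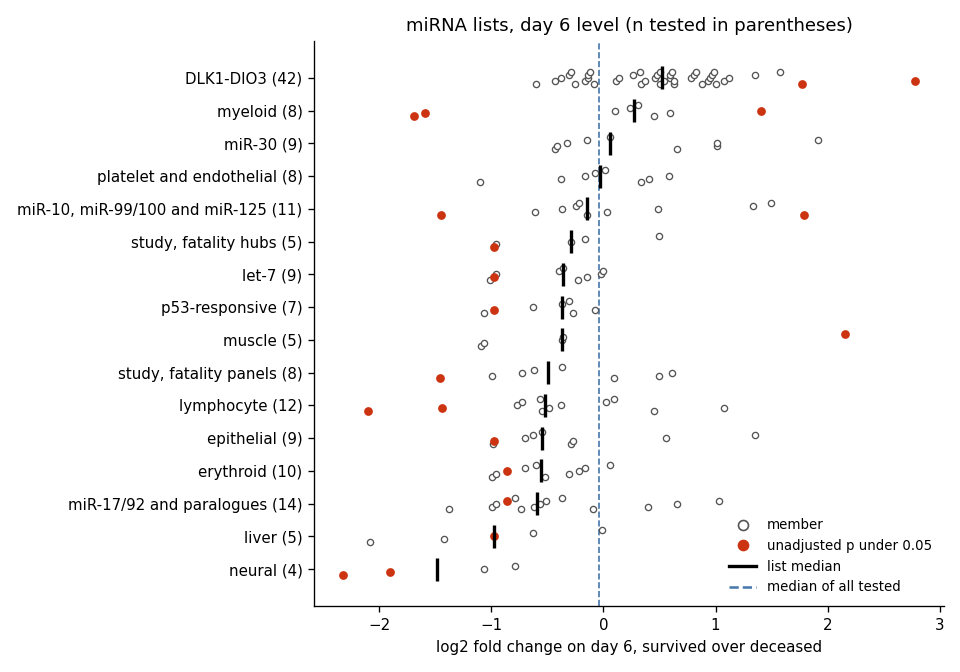
Log2 fold change on day 6, survived over deceased, of each list member (points) with the list median (bar) and the median of all 290 miRNAs (dashed line, -0.04), TMM scaling. DLK1-DIO3 has 31 of 42 members above 0, and the red blood cell list has 9 of 10 below 0; with total counts alone all values shift upward by a median of 0.98.

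In the plot of the lists, red points mark members with an unadjusted p under 0.05, at most 3 in a list. The lists overlap in members and hold miRNAs of 1 transcript, so their members are not independent.

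The haemolysis score of the day 6 libraries was lower in survivors once the libraries of low total were set aside. Without RA2445M and RA2021F the score was 2.55 to 5.09 in 11 survivors (median 3.50) and 3.75 to 6.33 in 11 deceased NHPs (median 4.46). The difference adjusted for RD was -1.39 (exact permutation of survival within dose, 15000 assignments, two-sided p = 0.00107, adjusted p = 0.00533 over 5 measures), with lower means in survivors at 4 of 4 doses. At 6 Gy the difference was -2.33, at 6.5 Gy -1.18, at 7 Gy -2.0 and at 7.5 Gy -0.41. At 7 Gy 1 survivor was left, RA2284F (score 2.58), so the value at that dose rests on its library.

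With all 24 libraries the difference in score did not pass (-0.45, exact permutation p = 0.609, adjusted p = 0.762). This rested on RA2021F, whose score of 11.1 came from a library with 0 counts of miR-23a-3p. Leaving out RA2021F alone gave -1.43 (exact permutation p = 0.000133, adjusted p = 0.000667), and leaving out any other NHP gave values of -0.56 to -0.05. With a pseudocount of 10 in place of 1 CPM the score of RA2021F was 7.81, and the difference was -0.81 (exact permutation p = 0.128) with it and -1.35 (p = 0.0012) without both low libraries, an alternative added after seeing the data.

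Both parts of the score were looked at apart. Without the low libraries, the log2 level differed by -0.58 for miR-451 (exact permutation p = 0.129) and by 0.81 for miR-23a-3p (p = 0.0313, adjusted p = 0.0782), survived minus deceased. With all libraries miR-451 differed by -0.78 (exact permutation p = 0.0393, adjusted p = 0.197), with lower means at 4 of 4 doses. Because the score is a ratio within a library, the TMM factor cancels in it apart from the pseudocount.

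Before irradiation the score of the same NHPs was 2.19 to 5.42 in survivors (median 3.76) and 2.24 to 6.49 in deceased NHPs (median 4.38), a difference of -0.71 (exact permutation p = 0.14). Its change by day 6 differed by 0.27 with all NHPs (exact permutation p = 0.779) and by -0.57 without the low libraries (p = 0.285). Among NHPs without low totals, females had median scores of 3.32 in 4 survivors and 4.78 in 8 deceased, and males 3.53 in 7 survivors and 4.05 in 3 deceased. The order of the groups was thus the same in both sexes.

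Of the other 4 measures of the libraries, 2 passed without the low libraries and 0 passed with all 24. Without the low libraries the share of miR-486-5p was lower in survivors (-11.5 percentage points, exact permutation p = 0.0205, adjusted p = 0.0431), and the log2 TMM factor was higher (1.17, p = 0.0259, adjusted p = 0.0431). With all libraries these differed by -5.70 points and 0.76 (adjusted p = 0.488 and 0.335). The log2 total differed by -1.63 with all libraries (exact permutation p = 0.0612, adjusted p = 0.306), by -0.84 without the low libraries (exact permutation p = 0.244, adjusted p = 0.262), and by -2.28 without RA2284F (exact permutation p = 0.00542, adjusted p = 0.0271). The number of miRNAs detected was 75 to 376 in survivors (median 253) and 198 to 335 in deceased NHPs (median 243), and it differed by -7.03 with all libraries (exact permutation p = 0.855) and by 35.1 without the low ones (p = 0.262). The part of haemolysis and of these measures in the differences of single miRNAs was not tested, and with the score as covariate edgeR called 0 miRNAs, with 16 at unadjusted p under 0.05. That fit used all 24 libraries, among them RA2021F with its score of 11.1 from 0 counts of miR-23a-3p.

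**Figure D3:**
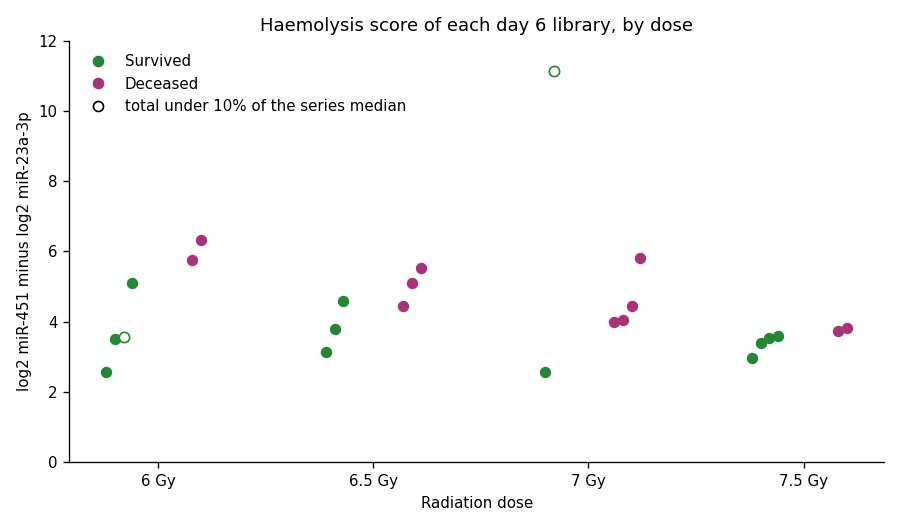
Haemolysis score, log2 miR-451 minus log2 miR-23a-3p, of each day 6 library by dose, with survivors left of deceased NHPs at each dose. Open circles are the 2 libraries with a total under 10% of the series median; the one at 11.1 is RA2021F, and without both the survivors have a median of 3.50 and the deceased NHPs of 4.46.

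The plot of scores shows that at 6.5 Gy 1 survivor lay within the range of the deceased NHPs, and that at 7.5 Gy the groups lay closest together.

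Whether survivors and deceased NHPs differed by the same amount at each dose was tested with the dose by survival terms. On day 6, 8 of 290 miRNAs passed (2.76%, edgeR adjusted p under 0.05), and 44 had an unadjusted p under 0.05 (15.2%). The 8 were let-7b-5p (adjusted p = 0.00828), miR-324-3p, miR-1260b, miR-511-5p and miR-636 (0.0142 each), miR-130b-5p (0.0228), miR-210-5p (0.0381) and miR-204-5p (0.0448). They fall outside the rule for named miRNAs and were singled out after their values were seen.

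let-7b-5p, a let-7 miRNA abundant in blood, had the smallest adjusted p. At 6 Gy it was 82.8 to 280 CPM in 4 survivors and 1241 and 6723 CPM in 2 deceased NHPs. At 7.5 Gy it was 256 to 1374 CPM in 4 survivors and 114 and 192 CPM in 2 deceased NHPs. The groups did not overlap at either dose, and they lay in the opposite order.

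miR-324-3p was 0 to 21.2 CPM in survivors and 207 and 324 CPM in deceased NHPs at 6 Gy, and 24.2 to 187 CPM in survivors with 0 in both deceased NHPs at 7.5 Gy. miR-636 was 0 to 2.49 CPM in survivors and 139 and 329 CPM in deceased NHPs at 6 Gy, and 4.83 to 62.5 CPM in survivors with 0 in both deceased NHPs at 7.5 Gy. Both followed the order of let-7b-5p. miR-204-5p, a miRNA of the eye and the choroid plexus, went the other way at 6 Gy, with 3.27 to 420 CPM in survivors and 0 in both deceased NHPs.

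These calls rested above all on RA0724F, a deceased NHP of 6 Gy. Without it 0 miRNAs were called, and without RA0521F, the other one, 8 were called (7 of them shared). Without all 6 Gy animals 0 were called, without RA2745F 2, without RA1938M 4, without RA2284F 5, without RA2445M 14 and without both libraries of low total 13. Under RLE size factors and with total counts alone 0 were called, and with the haemolysis score as covariate 3 (let-7b-5p, miR-324-3p and miR-511-5p). The covariate fit again included RA2021F and its outlying score. let-7b-5p kept its call in 23 of 24 exclusions of 1 NHP, and miR-204-5p in 11.

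**Figure D4:**
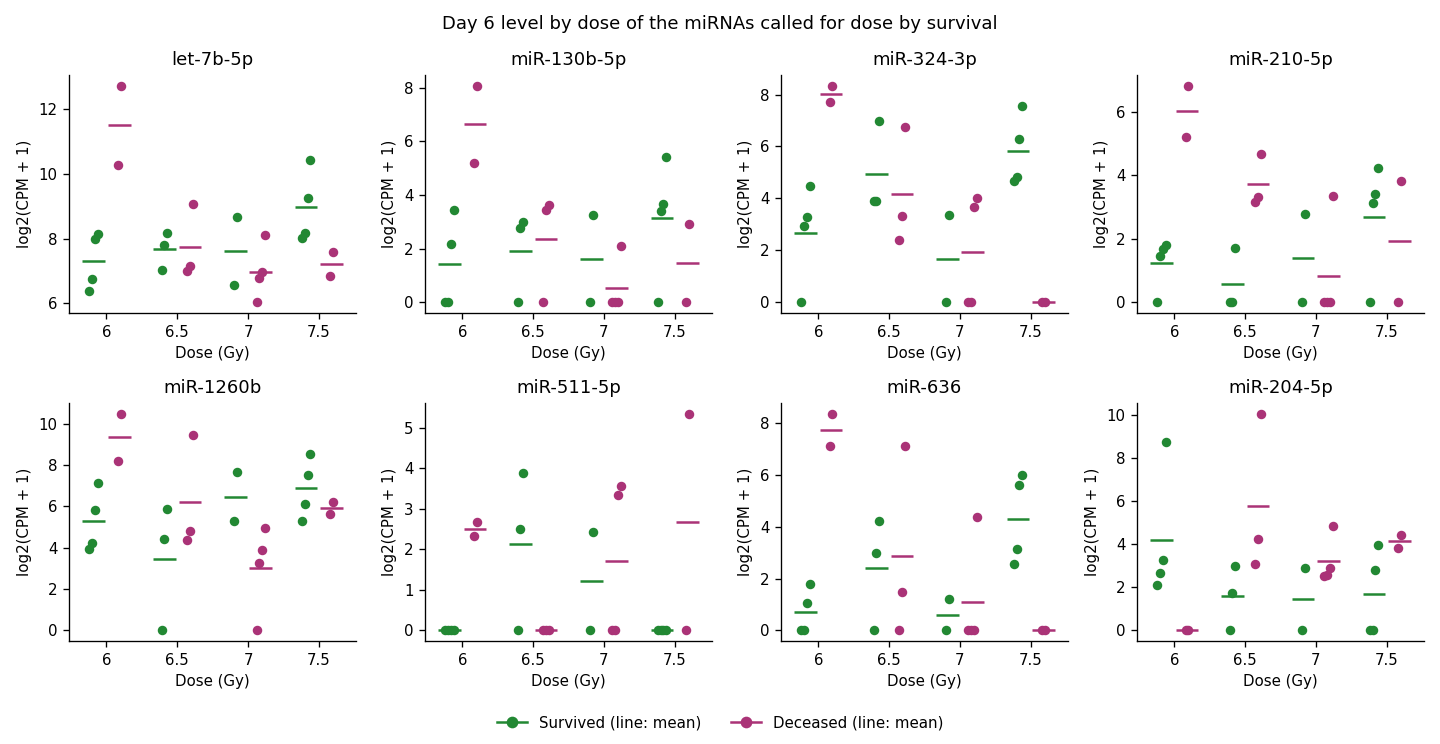
Day 6 levels, log2(CPM + 1), by dose of the 8 miRNAs called for dose by survival with TMM scaling, with survivors left of deceased NHPs and lines at the means. In 7 of 8 panels both deceased NHPs of 6 Gy lie above the survivors of 6 Gy, and miR-204-5p is at 0 in both; with RLE size factors or total counts alone 0 miRNAs are called.

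The plot by dose shows how few NHPs, 2 to 4, stand at each dose and outcome. RA0724F, the highest of the 6 Gy points of let-7b-5p, had the largest total (4118401 counts) and the lowest TMM factor (0.0907) of the 24 libraries. Their part in these calls was not tested.

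The change from each NHP's own pre-irradiation level also gave no call. Of 290 miRNAs 0 (0%) passed in edgeR with the NHP as block, 3 (1.03%) had an unadjusted p under 0.05 with a higher change in survivors and 6 (2.07%) with a lower one. limma and DESeq2 also called 0, with 8 and 9 at unadjusted p under 0.05. The 6 of smallest p in each direction are described, and none passed.

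miR-128b-3p, of a family rich in the brain and also present in blood cells, had the most even pattern. Its change was -8.48 to 0.84 in survivors (median -0.22) and -1.02 to 2.81 in deceased NHPs (median 0.81), on the log2 scale. The change was above 0 in 4 of 13 survivors and in 9 of 11 deceased NHPs, and survivors had the lower change in 29 of 33 pairs of the same dose and on average at all 4 doses. The difference was -1.43 (SE 0.58, edgeR unadjusted p = 0.0165, adjusted p = 0.984). For miR-128a-3p of the same family the difference in change was -1.10 (SE 0.68, edgeR unadjusted p = 0.11). On day 6 the level of miR-128b-3p was 0 to 559 CPM in survivors (median 222) and 231 to 747 CPM in deceased NHPs (median 407). It was again lower in 29 of 33 pairs, and the 2 survivors at 0 were RA2445M and RA2021F.

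miR-429-3p of the epithelial miR-200 family had a median change of 0 in survivors and 1.07 in deceased NHPs, with a difference of -2.27 (SE 1.13, edgeR unadjusted p = 0.0494). It had a count in 8 of 13 survivors and in 11 of 11 deceased NHPs on day 6, with medians of 5.84 CPM in survivors and 14.0 CPM in deceased NHPs, and survivors lay below in 30 of 33 pairs. Its level gave a log2 fold change of -0.99 (SE 0.61, p = 0.113). The 5 survivors without a count included the 4 of lowest total.

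miR-149-5p gave the smallest adjusted p of the change, 0.196 (difference -6.52, SE 1.81). Its change was -6.56 to 2.80 in survivors (median -1.47) and -2.80 to 8.15 in deceased NHPs (median 0), and it was lower in survivors in 24 of 33 pairs. Before irradiation its log2 fold change was 2.61 (SE 0.83, edgeR unadjusted p = 0.00345, adjusted p = 0.333), of the opposite sign to that on day 6. It was called without the animal as block (adjusted p = 0.015) and without RA2691M (adjusted p = 0.0237), and its adjusted p was over 0.9 without any 1 of RA2745F (0.981), RA2576M (0.959), RA1782F (0.909) or RA2700M (0.907).

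miR-204-5p (difference -2.89, SE 1.29), miR-338-5p (-3.12, SE 1.41) and miR-511-5p, which lies in a macrophage receptor gene (-2.77, SE 1.27), had lower changes in survivors in 25, 21 and 25 of 33 pairs. The change of miR-511-5p was above 0 in 1 of 13 survivors and in 3 of 11 deceased NHPs. All 3 had a median level of at most 7.28 CPM in either group.

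miR-543-3p of the DLK1-DIO3 region had the smallest p among the changes higher in survivors. Its median change was 0.12 in survivors (range -5.63 to 3.48) and -1.66 in deceased NHPs (range -6.19 to 4.86), with a difference of 2.35 (SE 1.07, edgeR unadjusted p = 0.0317). miR-493-3p of the same region had a change above 0 in 7 of 13 survivors and in 1 of 11 deceased NHPs (difference 2.25, SE 1.19). The region as a whole had a median difference of 0.59, against 0.04 for all 290 miRNAs, and leaving out 1 NHP moved it between 0.22 (without RA2284F) and 0.98 (without RA2576M). Before irradiation its median log2 fold change was 0.16, against 0.12 for all.

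miR-142-3p of blood cells had a median change of -0.41 in survivors and -2.01 in deceased NHPs (difference 1.75, SE 0.87, edgeR unadjusted p = 0.0488), and its change was above 0 in 3 NHPs of each group. miR-181c-3p had a median change of 0 in survivors and -2.38 in deceased NHPs (difference 2.32, SE 1.06, unadjusted p = 0.0326). miR-193a-3p (2.76, SE 1.43) and miR-769-5p (1.72, SE 1.02) had higher changes in survivors in 21 and 22 of 33 pairs. In all of these the groups overlapped.

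**Figure D5:**
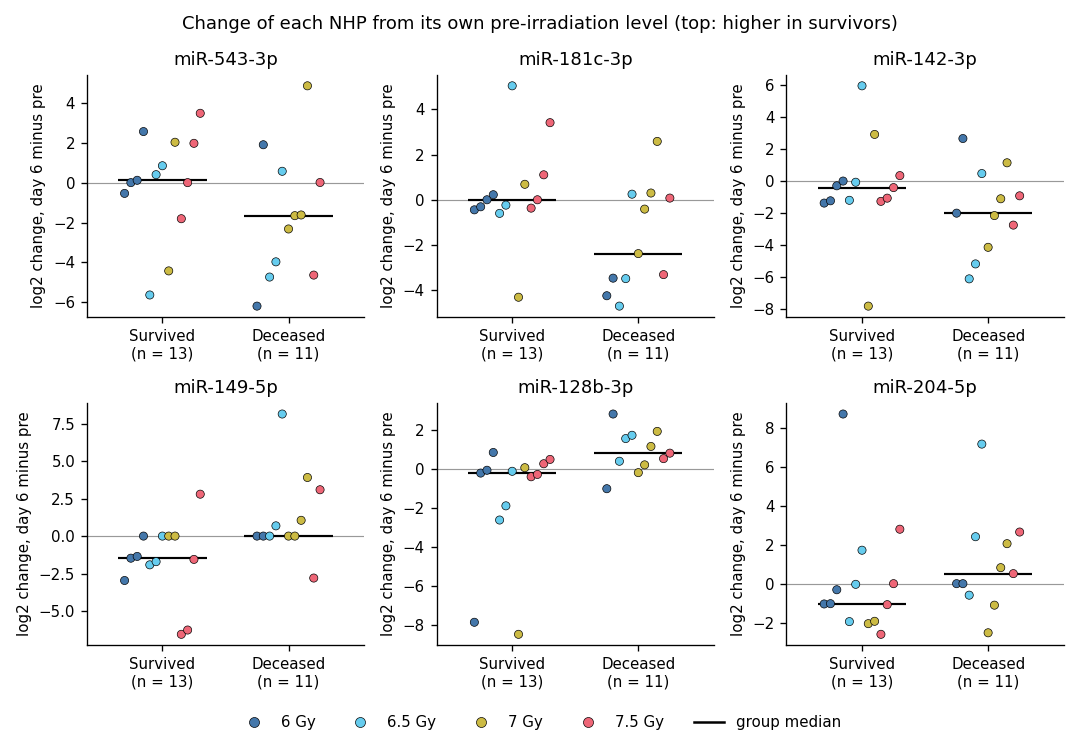
Change of each NHP from its own pre-irradiation level, day 6 minus pre in log2(CPM + 1), for 3 miRNAs of smallest p in each direction, with survivors (n = 13) left of deceased NHPs (n = 11). Points are NHPs coloured by dose and lines are medians. For miR-128b-3p the medians are -0.22 and 0.81, and 9 of 11 deceased NHPs lie above 0.

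The plot of changes shows the 2 lowest survivors of miR-128b-3p, RA2021F and RA2445M, far below the others, at the day 6 level of 0. With both, and with RA2709M for its pre-irradiation library of 24225 counts, left out, edgeR again called 0 miRNAs.

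Before irradiation, 0 of 290 miRNAs (0%) differed between the NHPs that later survived and those later deceased, and 15 (5.17%) had an unadjusted p under 0.05 in edgeR. The smallest adjusted p was 0.177, for miR-18a-3p. miR-92a-3p, abundant in red blood cells, had a log2 fold change of -1.12 (SE 0.52, unadjusted p = 0.0383) before irradiation and -0.96 (SE 0.59, p = 0.109) on day 6. Whether the sexes differed in the survival comparison was also tested, and 0 miRNAs passed (0%), with 18 (6.21%) at unadjusted p under 0.05.

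Of the miRNAs that the study tied to the risk of radiation-induced fatality (RRiF), 12 from its hubs and panels were listed here, which is not all of them. The study chose them on its whole cohort, across doses and times, which holds these samples, so their values are no independent evidence. Its hubs were picked by their network connections, and its panels were joint models of several miRNAs. A test of single miRNAs on day 6 at these doses is thus unlike those measures and does not check them. None of the 12 passed in the day 6 level. let-7a-5p (log2 fold change -0.97, SE 0.40, unadjusted p = 0.0184) and miR-92b-3p (-1.46, p = 0.00911) were the ones among the 12 with an unadjusted p under 0.05 in edgeR, where 8.28% of all miRNAs did with a lower level in survivors. let-7a-5p was 285 to 1959 CPM in survivors and 569 to 9717 CPM in deceased NHPs, below in 24 of 33 pairs. With total counts alone its sign turned (0.27), and without RA0724F it was -0.62, the value nearest to 0 over the exclusions of 1 NHP.

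Of the others, miR-363-3p of the miR-17 paralogues had -1.0 (SE 0.50), miR-342-3p of lymphocytes -0.72 (SE 0.61) and miR-106b-3p -0.62 (SE 0.55). miR-143-3p of smooth muscle had -0.37, miR-141-3p of the miR-200 family -0.29, miR-409-3p of the DLK1-DIO3 region -0.17 and miR-28-3p 0.09. miR-376c-3p of the same imprinted region had 0.62 (SE 0.58). miR-23a-3p, the miRNA subtracted in the haemolysis score, was 0 to 544 CPM in survivors (median 366) and 50.9 to 500 CPM in deceased NHPs (median 234), with 0.50 (SE 0.41). In each of these the difference was under 2 SE.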

How the data were processed

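Serum small RNA was sequenced by the authors from 36 NHPs at 4 times, the last on day 6, and the deposited table holds raw counts of 908 mature miRNAs in 144 libraries. By the study's methods, small RNA libraries were made with a TruSeq kit, demultiplexed with bcl2fastq, trimmed and filtered by quality and read length in Genomics Workbench, and counted against mature miRNAs of miRBase with a small number of mismatches allowed. Reads outside the allowed lengths, and miRNAs missing from that release, are thus not in the counts.

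From these counts, the 290 miRNAs present in 40% or more of all 144 libraries were tested. TMM factors were computed over all libraries, and levels are CPM, or log2(CPM + 1). Day 6 levels of survivors and deceased NHPs were compared with edgeR 4.0.16 (R 4.3.3; quasi-likelihood F test) with dose as factor, the change from pre-irradiation with the NHP as block and a survival by time term, and p-values were adjusted over all miRNAs tested by Benjamini-Hochberg, with a threshold of 0.05. The SE of a fold change is the fold change divided by the square root of F. limma 3.58.1 and DESeq2 1.42.0 were alternatives, beside other scalings, filters, covariates and exclusions. Measures of the libraries were compared by exact permutation of survival within dose (Python 3.11.15). Scripts were tested on simulated data.

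The libraries of an NHP were paired by its name in the sample titles. Deviations from the group means correlated with a mean r of 0.08 over the 24 pairs (-0.25 to 0.41), over 0.1 in 12 of them. The miRNAs named are those past the threshold, filled up to the 6 of smallest unadjusted p in each direction of the level and the change. To these were added some of the miRNAs the study named for fatality and the most abundant tested member of each list. Other list members were named after their values were seen. The members and the lists were chosen with earlier results of these data known. Each NHP gave 1 library per time, and each sample's total is the limit of its precision. Intervals for counting error were not computed, since spread between NHPs was used.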

Additional observations from a re-analysis of the deposited data

Results flagged for a closer look

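Within a dose and outcome, the values of groups of at least 4 NHPs were searched for 1 NHP far from the others (Dixon's test). The groups were the survivors of 6 Gy, those of 7.5 Gy and the deceased NHPs of 7 Gy. The test flags about 1 in 20 by chance for separate groups. Here the same animals were tested for many values, often at 0, so that rate need not hold. Of 150 tests 17 had such a value. RA2445M, the survivor of 6 Gy with 24458 counts, accounts for 8 of them: its log2 level was 0 for miR-193a-3p, miR-181c-3p, miR-376a-3p, miR-543-3p, miR-128b-3p and miR-409-3p, it was 7.14 for miR-23a-3p from 1 count, and 91 miRNAs were detected in it. RA2709M, a survivor of 7.5 Gy with 62094 counts, had 102 miRNAs detected and a log2 level of 0 for miR-141-3p. The part of the library totals in these values was not tested.

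The other survivors that stood apart did so on the high side. At 6 Gy these were RA0529F for miR-149-5p (log2 level 1.17) and RA2740F for miR-550-3p (2.42). At 7.5 Gy they were RA2700M for miR-337-5p (4.65), RA1938M for miR-193a-3p (4.24) and RA2592M for miR-338-5p (2.29). Among the deceased NHPs of 7 Gy, RA2265F stood apart for miR-337-5p (1.66) and for its total of 1056734 counts.

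The difference between survivors and deceased NHPs itself differed between doses for 8 miRNAs (edgeR, dose by survival terms). The adjusted p was 0.00828 for let-7b-5p, 0.0142 for miR-324-3p, miR-1260b, miR-511-5p and miR-636, 0.0228 for miR-130b-5p, 0.0381 for miR-210-5p and 0.0448 for miR-204-5p. Without RA0724F 0 of them passed.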

How the results depend on the processing

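The day 6 level gave 0 calls under every alternative but a looser filter, a count in at least 2 fitted libraries, which gave 3. The pre-irradiation level and the sex by survival term gave 0 under each alternative run. The change from pre-irradiation gave 1 call with no replicate block, miR-149-5p, 1 with the NHPs of a TMM factor under 0.3 left out, miR-636, and 0 to 1 with each NHP left out in turn. The block changed no other call.

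Signs of single miRNAs, none of which passed, depended on the scaling. With total counts alone the log2 fold change of the day 6 level was 0.27 for let-7a-5p, 0.85 for miR-409-3p, 0.54 for miR-141-3p, 0.43 for miR-342-3p, 0.17 for miR-363-3p, 0.38 for miR-106b-3p, 0.14 for miR-143-3p, 0.68 for miR-181a-5p, 0.84 for miR-191-5p, 0.95 for miR-148a-3p, 0.24 for miR-378a, 0.20 for miR-128a-3p, 0.55 for let-7f-5p, 0.19 for miR-30a-5p and 0.54 for miR-16-5p, each negative with TMM. With RLE size factors it turned to 0.33 for miR-409-3p, 0.0198 for miR-106b-3p, 0.12 for miR-143-3p, 0.32 for miR-486-5p, 0.67 for miR-191-5p, 0.52 for miR-148a-3p, 0.0593 for miR-378a, 0.13 for let-7f-5p and 0.11 for miR-16-5p, and the change of miR-92b-3p to 0.0477. With the NHPs of a low TMM factor left out, chosen after seeing the data, it was 0.19 for miR-92a-3p, 0.30 for miR-106b-3p, 0.20 for miR-486-5p and 0.37 for miR-181a-5p, and 1.68 for the change of miR-183-5p. DESeq2 gave 0.29 for miR-550-3p. limma gave -0.34 for miR-23a-3p, -0.46 for miR-376c-3p and -0.87 for miR-28-3p, log2(CPM + 10) gave -0.0455 for miR-376c-3p and -0.47 for miR-28-3p, and the haemolysis covariate -0.0208 for miR-23a-3p. With each NHP left out, miR-30a-5p ranged from -0.67 to 0.11 in level and miR-499-5p from -0.72 to 2.28 in change. The cause was not tested.

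Dose by survival gave 0 calls with RLE, with total counts alone and without the 6 Gy animals, 3 with the haemolysis covariate, 13 without the libraries of low total and 0 to 14 with each NHP left out. Without the libraries of low total the haemolysis score differed by -1.39, the share of miR-486-5p by -11.5 percentage points, the log2 TMM factor by 1.17 and the number of miRNAs detected by 35.1, against -7.03 with all and 12.7 after thinning every library to 11174 counts. With each NHP left out the score ranged from -1.43 to -0.0491, miRNAs detected from -27.6 to 20.9 and the log2 total from -2.28 to -1.16.

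With 2 to 4 NHPs per dose and outcome, totals down to 11174 counts and many miRNAs at 0 in most libraries, a p that misses the threshold does not show that levels were alike.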

Other observations

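With the looser filter, 435 miRNAs were tested and 3 passed in edgeR (adjusted p = 0.0465 each), all sparse and with more counts in deceased NHPs. They were singled out after their values were seen. This filter took a count in any 2 of the fitted libraries, so a miRNA could enter through the deceased NHPs alone. miR-383 entered in that way, so these calls are no independent support for a difference. It had 0 counts in all 13 survivors and a count in 5 of 11 deceased NHPs, with 75 counts in RA1782F and at most 4 in the others. miR-345 had a count in 4 survivors (at most 3 counts) and in 4 deceased NHPs (54 counts in RA0724F and 31 in RA1782F). miR-330-5p had a count in 1 survivor (1 count) and in 4 deceased NHPs (at most 9 counts, in RA0724F). RA0724F and RA1782F had the 2 largest totals of the day 6 libraries, and the part of depth was not tested.

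miR-182, of one cluster with miR-183-5p, had a log2 fold change of -2.43 (SE 0.93, edgeR unadjusted p = 0.0121) on day 6. Before irradiation it was already -2.10 (edgeR adjusted p = 0.227), and it passed at neither time. The first p is unadjusted and the second adjusted, so their sizes cannot be compared. The arms of some precursors lay on opposite sides on day 6 and those of others on the same side, as seen after the values were known. miR-30a-3p had a log2 fold change of 1.01 (SE 0.65) and miR-30a-5p, the major arm, of -0.43 (SE 0.49). Both arms of miR-150 (-0.77 and -1.44) and of miR-342 (-0.72 and -2.10) were negative. None of these arms passed.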
